A study of Mus musculus with 6 samples.

Results

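Small nucleolar RNAs (snoRNAs), small Cajal body RNAs (scaRNAs) and small nuclear RNAs (snRNAs) are short RNAs that stay in the nucleus. Most vertebrate snoRNAs are not transcribed on their own: they lie in introns of other genes, called host genes, and are trimmed out of the excised intron. The peaks described here are those of an iCLIP experiment on BAZ2A that touched such an RNA. BAZ2A is a chromatin protein with an RNA-binding TAM domain, best known as a subunit of the nucleolar remodelling complex that silences ribosomal RNA (rRNA) genes. In mouse embryonic stem cells, the cells used here, the paper states that this nucleolar function is abrogated. It also reports that BAZ2A was not located within nucleoli there. iCLIP fixes contacts between protein and RNA in living cells with UV light, pulls the protein down, and reads out the attached RNA fragments by sequencing.

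All 6 libraries came from E14 mouse embryonic stem cells (ESCs) grown in N2B27 medium with LIF/2i, in which the endogenous BAZ2A carried FLAG and HA tags. Precipitation used an anti-FLAG antibody on nuclear lysate. The 3 crosslinked libraries were exposed to UV-C, and the 3 background libraries were not. The authors called 1 list of 3127 peaks from all libraries together, so no value per library, no replicate error and no test between conditions can be given, and the depth behind a peak is unknown.

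A peak was kept when it overlapped, by 1 nt or more on either strand, a gene of type snoRNA, scaRNA or snRNA in GENCODE M21 (mouse genome mm10). This rule kept 86 of the 3127 peaks. They covered 77 small RNA gene models, which merge into 74 loci where models overlap, of 2912 loci annotated (2.54%). The 86 peaks named 71 of the 2288 genes in the list. In 67 peaks the small RNA lay on the strand of the named gene (77.9%, Wilson 95% interval 68.1 to 85.4), and in 19 it lay on the other strand. Some peaks were listed more than once, for overlapping genes, and the 86 peaks held 76 distinct intervals when strand was ignored. No peak lay close to the limit of the rule: the smallest overlap was 24 nt, and the nearest peak outside, near Snora70 in Rpl10, was 53 nt away.

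snoRNAs fall into 2 families. Box C/D snoRNAs guide 2'-O-methylation and box H/ACA snoRNAs guide pseudouridylation, mostly of rRNA, while scaRNAs guide the same changes on spliceosomal snRNAs in Cajal bodies. A few snoRNAs (U3, U8, U14, U17 and U22) act in the cutting of the rRNA precursor. U6 is the snRNA at the catalytic centre of the spliceosome, and mammalian genomes hold many dispersed copies of it, most of which are thought to be pseudogenes. Models known only by a Gm number were named here through the RefSeq entry at the same place, which 70 of the 74 loci had.

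For 8 high-scored snoRNAs on the strand of their named gene, from 4 box C/D and 4 box H/ACA loci, the sequence is given 5' to 3', with the part under the peak in capitals and the rest in lower case. The sequences were read from the RefSeq copy of mm10 (GRCm38.p6). U8 and U3 are transcribed from promoters of their own, U22 comes from the non-coding gene Snhg1, SNORD97 from Eif4g2, a translation initiation factor, and SNORA63 from Eif4a2, an RNA helicase of the same pathway. SNORA61 comes from the non-coding gene Snhg12, Snora3 from Rpl27a and the SNORA42/SNORA80 family member from Rpl6, both genes of large-subunit ribosomal proteins. They lie at chr11:69073427-69073561 (+) for Snord118, chr10:40258467-40258680 (+) for Rnu3a, chr19:8725866-8725991 (+) for Snord22, chr7:111076060-111076227 (-) for Gm23262, chr16:23111301-23111429 (+) for Gm26447, chr4:132310240-132310369 (+) for Snora61, chr7:109520120-109520251 (+) for Snora3 and chr5:121205010-121205143 (+) for Gm26205.
Snord118 (U8): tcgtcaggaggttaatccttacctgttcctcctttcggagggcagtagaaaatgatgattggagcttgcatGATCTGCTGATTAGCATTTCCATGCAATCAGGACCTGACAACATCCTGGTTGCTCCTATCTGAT
Rnu3a (U3): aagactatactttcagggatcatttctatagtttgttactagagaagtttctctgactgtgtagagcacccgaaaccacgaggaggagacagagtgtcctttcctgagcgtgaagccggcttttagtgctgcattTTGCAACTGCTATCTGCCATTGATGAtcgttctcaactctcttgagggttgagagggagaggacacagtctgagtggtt
Snord22 (U22): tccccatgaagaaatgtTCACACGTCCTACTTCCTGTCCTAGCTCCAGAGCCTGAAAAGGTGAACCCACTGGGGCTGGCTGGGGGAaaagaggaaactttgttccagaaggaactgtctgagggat
Gm23262 (SNORD97): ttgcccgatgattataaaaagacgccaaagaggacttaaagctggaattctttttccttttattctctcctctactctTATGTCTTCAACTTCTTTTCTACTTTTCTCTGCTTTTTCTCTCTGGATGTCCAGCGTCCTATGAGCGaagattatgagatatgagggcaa
Gm26447 (SNORA63): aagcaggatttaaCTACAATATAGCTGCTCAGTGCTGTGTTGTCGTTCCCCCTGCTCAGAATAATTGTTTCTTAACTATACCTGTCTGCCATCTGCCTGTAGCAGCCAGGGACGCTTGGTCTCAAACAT
Snora61: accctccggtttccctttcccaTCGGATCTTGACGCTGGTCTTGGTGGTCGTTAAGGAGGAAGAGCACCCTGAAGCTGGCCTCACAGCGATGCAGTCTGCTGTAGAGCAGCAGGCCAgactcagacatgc
Snora3: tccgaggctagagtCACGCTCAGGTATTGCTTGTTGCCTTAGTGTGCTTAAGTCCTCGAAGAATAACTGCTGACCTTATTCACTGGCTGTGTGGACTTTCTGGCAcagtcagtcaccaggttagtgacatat
Gm26205 (SNORA42/SNORA80 family): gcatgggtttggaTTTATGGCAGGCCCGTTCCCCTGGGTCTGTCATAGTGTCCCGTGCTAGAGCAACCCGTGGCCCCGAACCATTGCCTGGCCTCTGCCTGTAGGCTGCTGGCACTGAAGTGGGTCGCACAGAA

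Related snoRNAs can be alike over their whole length and still differ in the part under the peak. Hspa8, which encodes the constitutive Hsc70 chaperone, held 3 copies of U14 in its introns, at chr9:40803583-40803668, chr9:40803995-40804080 and chr9:40804748-40804837 (+), and each had a peak. Snord14c and Snord14d were identical at 84 of 86 positions (97.7%), while Snord14e matched either at 71 of 90 (78.9%). Snord35a, a box C/D snoRNA in the large-subunit ribosomal protein gene Rpl13a, is shown with them, at chr7:45126346-45126435 (-). Capitals again mark the peak, which in Snord35a ended at nt 58.
Snord14c: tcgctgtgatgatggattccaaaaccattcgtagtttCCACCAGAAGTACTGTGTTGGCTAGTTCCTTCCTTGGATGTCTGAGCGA
Snord14d: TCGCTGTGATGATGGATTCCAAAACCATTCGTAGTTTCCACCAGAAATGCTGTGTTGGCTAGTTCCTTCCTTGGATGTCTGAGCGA
Snord14e: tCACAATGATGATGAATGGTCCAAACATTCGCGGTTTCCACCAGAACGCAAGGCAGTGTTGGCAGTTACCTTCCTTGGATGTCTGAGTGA
Snord35a: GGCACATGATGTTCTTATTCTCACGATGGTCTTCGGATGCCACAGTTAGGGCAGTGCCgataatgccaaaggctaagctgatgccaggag

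Box C/D snoRNAs gave the most loci with a peak on their own strand, 24, followed by 17 box H/ACA snoRNAs, 13 U6 models and 4 scaRNAs. Another 2 loci were snRNA models with no RefSeq name and 1 was a snoRNA model of no family, Gm22884 in an intron of G3bp1, the stress granule protein, with a score of 6.56. Set against the annotation and counting either strand, a peak lay at 24 of 377 box C/D loci (6.37%, Wilson 95% interval 4.31 to 9.30), at 18 of 753 box H/ACA loci (2.39%, 1.52 to 3.75) and at 4 of 49 scaRNA loci (8.16%, 3.22 to 19.2). For U6 models the share was 22 of 709 (3.10%, 2.06 to 4.65). The box C/D and scaRNA intervals lay above the 2.54% of all small RNA loci, and the intervals of box H/ACA snoRNAs and U6 models held that value. Below it lay the intervals of the snRNA models with no RefSeq name (4 of 493, 0.811%, 0.316 to 2.07) and of the snoRNA models of no family (1 of 350, 0.286%, 0.0505 to 1.60), which are part of the 2912 loci. No peak lay at any of 123 U1, 29 U2 or 11 U4 models, with upper Wilson bounds of 3.03%, 11.7% and 25.9%. Of 11 U5 models 1 had a peak, Gm22265, and only on the strand of Hhat, which runs against it, with a score of 6.61. These intervals cover the counting of loci only.

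**Figure D1:**
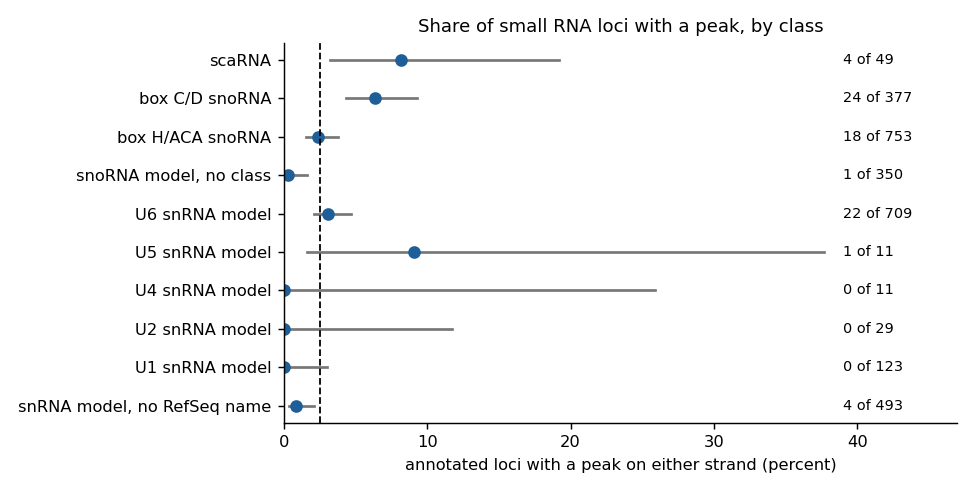
Share of annotated small RNA loci with a peak on either strand (x axis, percent) for each class (y axis), with Wilson 95% intervals as lines and the counts at the right. The dashed line is the 2.54% of all 2912 loci. The whole intervals of box C/D snoRNAs and scaRNAs lie to its right, and U1, U2 and U4 models are at 0.

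The annotation holds many copies that lie in no gene of the list. Of the 253 small RNA loci that lay on the strand of, and inside, a gene named by any peak of the list, 58 had a peak on that strand (22.9%), against 3 of the other 2659. The readthrough gene Gm20388 was left out of this count because it spans many genes. Within genes of the list the share was 22 of 90 for box C/D snoRNAs (24.4%), 17 of 65 for box H/ACA snoRNAs (26.2%) and 13 of 40 for U6 models (32.5%), and none of the 10 U1 models there had a peak. A gene can be in the list through its small RNA alone, so these shares are a description. The 3 loci outside any such gene were Snord118, Rnu3a and Scarna2, for which the list names the small RNA itself.

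Each peak carries a score from the peak caller, whose scale is not stated, and higher scores rank earlier in the list. The median score was 6.59 for the 86 peaks and 4.23 for the other 3041, with 3.76 for the other intronic and 4.70 for the other exonic peaks. Of the 86 peaks, 63 (73.3%) scored above the list's median of 4.28, and 24 (27.9%) scored above 11.7, the score that 10.0% of the list passed. Peaks on the strand of the small RNA had a median of 6.71 and those on the other strand 6.23. By class the medians on the same strand were 6.56 for box C/D snoRNAs (28 peaks), 5.64 for box H/ACA snoRNAs (17 peaks), 9.19 for U6 models (13 peaks) and 14.1 for scaRNAs (6 peaks), and the ranges overlapped. Peak length did not set these peaks apart: its median was 58.0 nt both here and over the list.

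**Figure D2:**
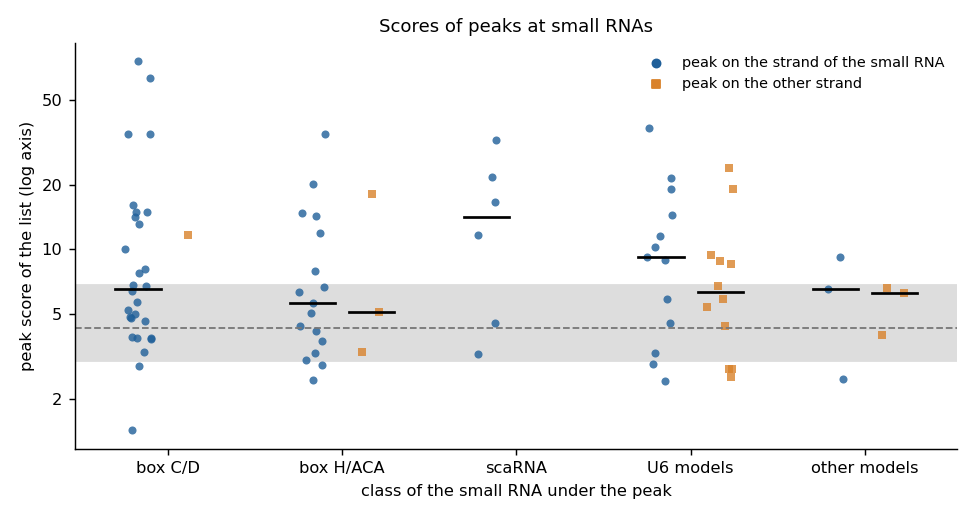
Score of each of the 86 peaks (y axis, log scale) by class of small RNA, for peaks on the strand of the small RNA (circles) and on the other strand (squares). Black bars are medians of groups with 3 or more peaks, the grey band spans the quartiles of all 3127 peaks, 3.01 to 6.82, and the dashed line is their median of 4.28.

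The highest score, 75.7, was that of Snord118, which stood at rank 24 of the list. Its 64 nt peak ran from nt 72 to the last nt of the 135 nt RNA. SNORD97 in Eif4g2 followed with 63.2, at rank 28, and both stood well above the next member, a U6 model at 36.8. The U3 gene Rnu3a scored 34.5 and is listed under 2 overlapping gene models. Its 26 nt peak, nt 136 to 161, covered 12.1% of the RNA, the smallest share of any locus, whereas the peaks of Snord14d, Snord65, Snord80 and Scarna9 covered all of theirs.

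Grouped by role, the snoRNAs that act in rRNA precursor cutting had 9 loci with a same-strand peak of 26 annotated under their names (34.6%), a grouping made after the values were seen. Over all box C/D and H/ACA loci the count was 41 of 1130 (3.63%), and the 9 loci are among these 41. Of the 1130 loci, 287 box C/D and 688 box H/ACA snoRNAs lay in no gene of the list on their strand. Within genes of the list the shares were 24.4% and 26.2%. Whether the group has more peaks than other snoRNAs was not tested. U8 and U22 had 1 locus each and U3 had 2, Rnu3a and Rnu3b3, the second with a score of 3.31. U14 had 3, Snord14e at 14.1, Snord14d at 10.0 and Snord14c at 7.72, and Snord14a had none. U17 had 2, Gm26448 in Rpsa, a small-subunit ribosomal protein gene, at 7.94 and Snora73a in Rcc1, the exchange factor for the GTPase Ran, at 6.33, while the neighbouring Snora73b had none. The other 32 box C/D and H/ACA loci included Snord35a at 15.0, Snord70 in Nop58 at 8.09, Snora33 in Rps12 at 11.9, Snora3 at 14.3 and Gm26205 at 14.8.

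Of the scaRNAs, Scarna2 had 2 peaks, with scores of 32.3 and 21.8, that covered 30.9% of its 414 nt annotated length. Gm23547 (U89), in an intron of Phb2, the mitochondrial prohibitin, had 2 peaks with scores of 16.6 and 3.24. Gm22009 (SCARNA7) in Kpna4, an importin alpha, scored 11.7. Scarna9 in Cep295, a centrosomal protein gene, scored 4.53. All 6 scaRNA peaks lay on the strand of the scaRNA.

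Within a peak the caller marks a single nucleotide, the mode. Each small RNA was cut into 3 parts of equal length to place it. In box H/ACA snoRNAs the mode fell in the 3' part in 12 of 17 intervals, in the middle part in 5 and in the 5' part in 0, at a median of 0.804 of the length from the 5' end. In box C/D snoRNAs, 4 modes of 24 lay in the 5' part, 11 in the middle, 8 in the 3' part, and 1, of Snord65, lay past the 3' end, with a median of 0.526. Of all 63 same-strand intervals, 52 lay wholly inside the small RNA. The longest stretches past an end were 19 nt on the 5' side, at Snord80, and 36 nt on the 3' side, at Gm26205. The median share of a small RNA under its peaks was 52.9% over the 61 loci.

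**Figure D3:**
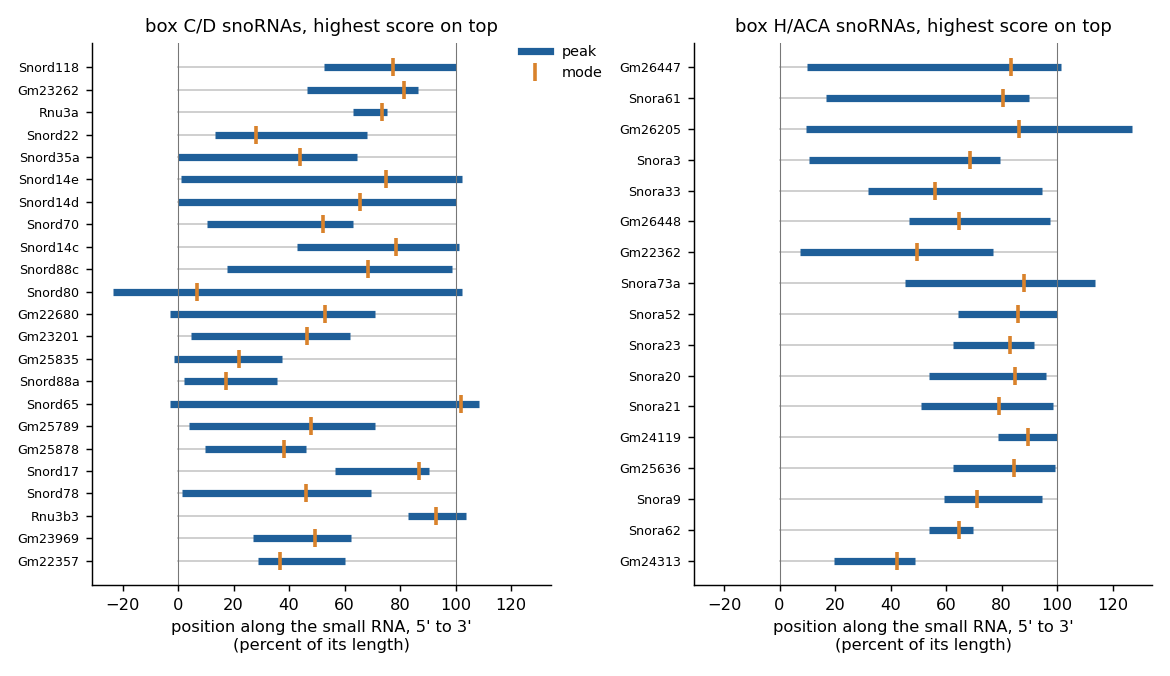
Extent of the best-scored same-strand peak (blue bar) and its mode (orange tick) along 23 of 24 box C/D and all 17 box H/ACA snoRNAs (y axis, ordered by score), with the x axis in percent of the length of the RNA. Most bars stay between 0 and 100%, and the modes of the H/ACA snoRNAs gather towards the 3' end, at a median of 0.804 of the length.

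The sequence boxes that name the 2 families gave a reference for these positions. The C box was searched as TGATGA in the first 25 nt, the D box as CTGA in the last 25 nt, and the H/ACA end as ACA in the last 10 nt, all on the strand of the snoRNA. A D box of these letters was found in 23 of 24 box C/D loci with a peak (95.8%) and in 366 of all 377 (97.1%). The exact C box was found in 12 of 24 (50.0%) and in 293 of 377 (77.7%). The ACA was found in 16 of 17 H/ACA loci with a peak (94.1%) and in 511 of 753 (67.9%). The peaks covered the whole C box in 9 of those 12 loci, the D box in 8 of 23 and the ACA in 7 of 16. A missing match says only that these letters are not in the window, since both boxes vary.

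For the RNAs printed above, the ends of the peaks can be set against these boxes. In Snord118 the peak reached across the D box, nt 131 to 134. In Snord22 and Rnu3a the D box, at nt 118 to 121 and nt 205 to 208, lay outside it. The peak of Snord14d covered both boxes, nt 7 to 12 and nt 79 to 82, and that of the nearly identical Snord14c covered only the D box. The modes of the 3 U14 copies lay at nt 68, 57 and 68 for Snord14c, Snord14d and Snord14e.

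Host genes of snoRNAs and scaRNAs numbered 34 on the same strand, with overlapping genes counted separately. They comprised 7 non-coding genes (2410006H16Rik, Gas5, Gm28496, Snhg1, Snhg12, Snhg15 and Zfas1), 8 ribosomal protein genes (among them Rpl6, Rpl7a, Rpl13a, Rpl27a, Rps12 and Rpsa) and 19 other protein-coding genes. Among the last were 3 translation factors (Eif4a1, Eif4a2 and Eif4g2), the chaperones Hspa8 and Tcp1, the nuclear transport genes Ipo7, Kpna4 and Rcc1, and Nop58, whose product is itself a core protein of box C/D particles. Rpl13a and Gm45713 share the Snord35a peak, and 2410002F23Rik and Gm28496 share the peaks at Snord88a and Snord88c. Tex14 entered through Rnu3b3, a U3 gene in an intron of 40458 nt, and counts as a host by position only. All 61 same-strand entries whose named gene was not the small RNA itself lay in an intron of that gene. Of these, 23 also fell in an exon of another of its transcripts.

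Among hosts of a covered snoRNA or scaRNA, those with several small RNAs seldom had a peak at each. Counting overlapping host genes once, 23 such hosts held 81 small RNA loci on their strand, of which 33 had a peak. Tex14 is among them by position only, with 1 of its 6 U1 and U3 loci covered. In 16 hosts 1 locus had a peak, in 5 hosts more than 1 but not all, and in 2 hosts, Hspa8 and Ipo7, all. Gas5, a non-coding gene known for its snoRNAs and its growth-arrest expression, had peaks at 4 of 9 loci, with scores of 6.37 at Snord80, 3.91 at Gm25789 (SNORD81), 3.83 at Snord78 and 1.43 at Gm22357 (SNORD24). Snhg1 had peaks at 2 of 8, Snord22 at 16.2 and Gm22680 (SNORD30) at 5.66. Snhg12 had 1 of 4, Snora61 at 20.2.

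Among protein-coding hosts, Eif4a2 had a peak at 1 of 5 loci, Gm26447 at 34.5, and none at Gm24201, a second SNORA63 copy in the same gene. Rpl13a had 1 of 4, Snord35a at 15.0, and Nop58 1 of 4, Snord70 at 8.09. Rpsa had 2 of 3, Gm26448 at 7.94 and Snora62 at 2.90. Ipo7, an importin gene, had both of its H/ACA snoRNAs covered, Snora23 at 5.04 and Gm25636 (SNORA13) at 3.28. Zfas1 had 2 of 3, both of the SNORD12/SNORD106 family, Gm23201 at 5.19 and Gm25878 at 3.86, and these matched at only 64.5% of positions. The SNORD88 host 2410002F23Rik, which overlaps Gm28496 on the same strand, had 2 of 4, Snord88c at 6.74 and Snord88a at 4.81. These peaks score almost the same when listed under Gm28496, 6.80 and 4.84.

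**Figure D4:**
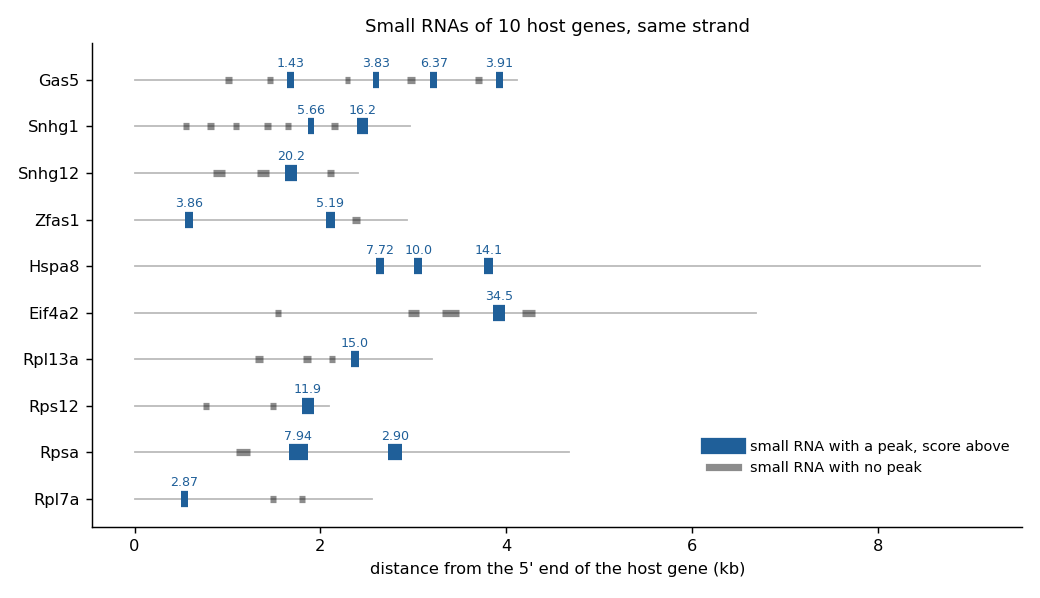
Small RNAs on the strand of 10 host genes, drawn to scale as distance from the 5' end of the gene (x axis, kb). Blue boxes are small RNAs with a peak, with its score above, and small grey boxes are small RNAs with none. Hspa8 has all 3 covered, and Eif4a2 has 1 of 5.

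Where a snoRNA lies in its intron matters for its processing, and box C/D snoRNAs usually sit a short way upstream of the 3' splice site. In genes of the list, the distance from the snoRNA to the 3' splice site had a median of 81.5 nt (quartiles 72.2 and 97.0) for 22 box C/D loci with a peak, and 89.5 nt (70.0 and 280) for 68 without. Of the 22, 16 lay 60 to 100 nt from it. Box H/ACA loci had medians of 204 nt (81.0 and 491, 17 loci) with a peak and 448 nt (127 and 2574, 48 loci) without. These quartile ranges overlap in both families. For the 13 U6 models with a peak on their strand the median distance was 6758 nt. Their introns had a median length of 19254 nt, against 260 nt for the introns of the box C/D loci.

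The 13 U6 models with a peak on their strand lay in genes of 14078 to 766722 nt. After Gm26129 in Arid4b, a chromatin-associated protein, at 36.8, Gm25873 in Zbtb20, a zinc finger repressor, at 21.5, Gm24445 in the chromatin regulator gene Ankrd11 at 19.2 and Gm23410 in the Mediator subunit gene Med23 at 14.5 came Gm25132 in the kinase gene Dclk1 at 11.5 and Gm25039 in Lrba at 10.3. Gm23966 in Orc2, an origin recognition subunit, scored 9.19 and Gm26497 in the mechanosensitive channel gene Piezo1 8.88. The remainder were Gm24204 in Rpl3 at 5.89, Gm22061 in Rara, the retinoic acid receptor alpha, at 4.52, Gm24144 in the ciliary gene Cplane1 at 3.29, Gm24449 in Sos2 at 2.91 and Gm22260 in Adgrb3 at 2.44. On the same strand, the snRNA models without a RefSeq name were Gm22107 in Myh9, a non-muscle myosin heavy chain, at 9.18 and Gm23318 in the kinase gene Mtor at 2.47. By blastn both matched a U6 model best, over 107 nt at 83.2% and over 78 nt at 91.0% identity. On the other strand were Gm23792 against Dst at 3.99, which matched a U6 model over 85 nt at 90.6%, and Gm22710 against Clasp1 at 6.23, for which no match to a named small RNA was found.

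The 22 U6 models with a peak on either strand were close to Rnu6, the annotated U6 gene, but none was the same. Of these, 13 had a peak on their own strand and 9 on the other strand only. The identity of the 22 to Rnu6 ran from 86.9% to 99.1%, with a median of 93.9%, and 18 of 22 were at 90% or more. The 687 models without a peak had a median of 87.9%, with 288 at 90% or more and 46 identical to Rnu6. Laid over Rnu6, 21 of the 22 intervals covered nt 52 to 73, and the modes had a median of nt 62.0 (quartiles 59.0 and 67.8).

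**Figure D5:**
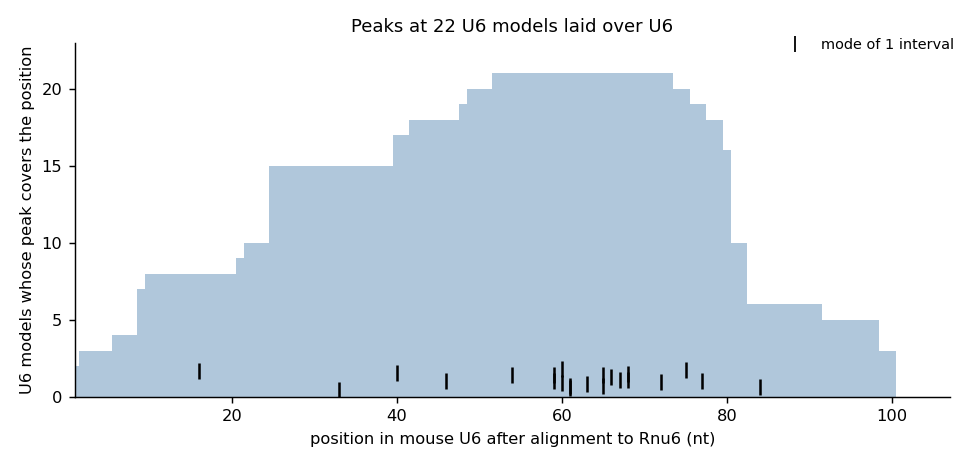
Number of U6 models whose peak, on either strand, covers each position of Rnu6 (y axis) after alignment (x axis, nt). Ticks are the modes of the 22 intervals, 9 of them from models with a peak on the other strand only. The count reaches 21 over nt 52 to 73.

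How often a covered sequence occurs in the genome bears on how reads can be placed, since a read that fits several places has no single position. Of the 76 distinct intervals, 71 had a sequence found once in mm10 on either strand, exactly and over its whole length. The exceptions were Gm26497 in Piezo1 with 149 copies, Gm24449 in Sos2 with 4, and Snora61, Rnu3b3 and Gm23318 with 2 each. The whole small RNA occurred 8 times for Rnu3b3, whose peak ran 8 nt past the 3' end of the RNA. All sequences of the genome release were searched, so a copy may lie outside the assembled chromosomes. Only exact copies of a whole interval were counted, so near-identical copies and shorter shared stretches were left out. These counts therefore cannot tell whether the reads under an interval had a unique position. The part that placement of reads had in which copies carry a peak was not tested. The median GC content of the 76 intervals was 48.2%, and that of the list 55.4%. The mode fell on a U in 19.7% of the intervals and in 24.2% of the list.

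In the 19 peaks on the other strand, U6 models made up 12. Among the best scored were Gm23627 against Hydin, a ciliary gene, at 24.1, Gm24445 against Gm20388 at 19.1, the box H/ACA snoRNA Snora57 against Lbhd1 at 18.2 and Gm23966 against Nif3l1 at 9.44. Lower were Gm26497 against Gm20388 at 8.84, Gm23402 against Cd247, a T cell receptor chain, at 8.55 and Gm25681 against Ntng1, netrin G1, at 6.77. Of the 76 distinct intervals, 6 were listed on both strands (7.89%), against 111 of 2933 over the list (3.78%), among them Gm23966, Gm25636, Snora23, Gm26497 and Gm24445. The scores of the 2 entries differed by a ratio of 1.00 to 1.12, so the list does not tell apart on which strand these reads lay. The antisense gene 1600010M07Rik, which runs against Ipo7, thus repeats both Ipo7 peaks, at 5.09 and 3.32.

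Of the 13 intervals listed on the other strand only, 12 had no other annotated gene on the strand of the small RNA. Whether these 13 peaks hold reads of the small RNA or of the gene named for the other strand cannot be told apart from the list. In the U6 models, 8 of 12 other-strand modes lay in the middle part, and 10 of 13 on the same strand, with 3 intervals counted in both. The other-strand peak at Gm24311, against Ccz1, covered only nt 1 to 33 of Rnu6.

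Peaks away from the small RNA were found in 20 of the named genes. Eif4a1 had 2 further peaks, the best at 29.2, against 4.99 at its box C/D snoRNA Gm25835 (SNORD10). Zbtb20 had 1 at 22.7, close to the 21.5 of its U6 model, Lrba 1 at 13.4, Slc25a3, the mitochondrial phosphate carrier, 2 with the best at 10.1, and Piezo1 3 with the best at 8.35. In Rpl13a the further peak, at 10.9, lay 56 nt from Snord33, and in Zfas1 and Rpsa it scored 6.81 and 6.65. Gm20388 had 27, the best at 45.5, over a span of 4434882 nt that takes in other genes. Gm45713, which overlaps Rpl13a, repeats the Rpl13a peak at 11.0. In 7 genes the further peak scored higher than the peak at the small RNA. Hspa8, Eif4a2, Eif4g2, Snhg1, Snhg12 and Gas5 had peaks at their small RNAs only.

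The genes that build and process these particles were examined through lists of their members. Over the annotation, 2128 of 21951 protein-coding genes had a peak (9.69%). Of 12 genes listed under box C/D core and assembly 3 had one. They were Nop58 with a summed score of 12.5, Zfp106 with 7.99 and Fbl, the methyltransferase fibrillarin, with 1.95. Of the Nop58 sum, 8.09 came from the peak at its intronic snoRNA Snord70. Zfp106 is a zinc finger protein gene and not an established part of box C/D particles. Of 6 box H/ACA genes Dkc1, the pseudouridine synthase dyskerin, had one at 8.59. Of 6 nucleolar and Cajal body chaperones 3 had one, Npm1 with a summed 18.1, Tcof1 with 4.02 and Ncl, nucleolin, with 2.84.

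Of 23 genes listed under 3' end and cap processing of small RNAs 5 had a peak. They were the Integrator subunits Ints2 at 5.02, Ints7 at 4.80 and Ints6 at 4.62, Phax, the snRNA export adaptor, at 2.70, and Tert at 4.86. Tert encodes the telomerase reverse transcriptase, which is not itself a processing factor. Of 33 spliceosomal particle genes 5 had one: Snrnp70 at 7.51, Sf3b3 at 3.62, Snrpa at 3.19, Sart3 at 2.91 and Prpf8 at 2.39. Of 21 known non-coding host genes in the annotation 6 had a peak, 4 of them at a small RNA, and the other 2, Epb41l4aos at 5.25 and Mirg at 2.22, away from one. Of 85 ribosomal protein genes 38 had a peak (44.7%, Wilson 95% interval 34.6 to 55.3), and 31 had one away from any small RNA. Summed over all peaks of a gene, the highest scores among the 38 were 32.0 for Rps20, 29.8 for Rplp2 and 28.6 for Rpl10a. Next came 25.9 for Rpl13a and 17.5 for both Rpsa and Rpl10. Of these sums, 15.0 in Rpl13a and 10.8 in Rpsa came from peaks at small RNAs. The interval of the 44.7% lay above the 9.69% of protein-coding genes. That 9.69% is over every annotated protein-coding gene, whatever its expression. The paper reports that the density of iCLIP reads rose with transcript level, and expression was not taken into account here.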

How the data were processed

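iCLIP libraries were made from 3 crosslinked and 3 background samples, grouped by their titles. Per the labels and the study's methods, the authors trimmed adaptors (Flexbar), aligned reads to mm10 (GRCm38) with STAR 2.6, collapsed duplicates with UMI-tools 0.5.1 and called peaks with omniCLIP at default settings against the background libraries, with an Ensembl annotation. Crosslinked and background libraries were mixed before sequencing. The paper gives as its reason that a gel showed no amplification product for the background samples. How far these libraries screened peaks at abundant small RNAs is therefore unknown. The score deposited by the authors is the peak caller's own, with no stated scale, and was used within the list only. Depth per library is unknown, and intervals cover counting only.

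Peaks were overlapped with GENCODE M21, whose small RNA sequences matched the genome used in 2912 of 2912 loci. Overlapping same-strand models were merged. Shares carry Wilson 95% intervals. U6 models were aligned globally to Rnu6 with Biopython 1.88, and unnamed models were matched with blastn 2.17.0. The overlap code was tested on simulated data. Python 3.11.15, numpy 2.4.6 and pandas 2.3.3 were used. No test was run, since the list is a single set.

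The 25 best-scored same-strand small RNAs were named, with all snRNAs and scaRNAs, the 8 best on the other strand, hosts with more than 1 such peak, up to 10 hosts with further peaks by score, and pathway members with a peak (the 5 with the highest summed score where over 10). Others named were chosen after their values were seen. The members and lists were chosen with earlier results of these data known. Some items are not reported here.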

Additional observations from a re-analysis of the deposited data

How the results depend on the processing

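Of 33 values under alternatives for the number of peaks, small RNA models and named genes, the share on the strand of the small RNA, the median score and the median share covered, 29 stayed within the limits set for a change. The 4 that moved came from leaving out genes of type snRNA, an alternative added after the data were seen: 56 peaks, 50 small RNA models and 42 named genes remained, and 92.9% of the peaks lay on the strand of the small RNA. The construction of that alternative, which drops the U6 models, accounts for this. No paired analysis was possible because the list gives no value per library, and no library could be left out for the same reason. Depth limits cannot be given without counts per library.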
